A study of Mus musculus with 7 samples.

Results

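Transcripts of genes whose products connect cargo to the autophagosome were followed in cells sorted as Pax7-GFP+ from mouse muscle after exposure to a high level of CO2. They comprised 3 genes of the ATG8 family (Gabarap, Gabarapl1 and Map1lc3a) and 7 genes of autophagy receptors and cargo adaptors (Sqstm1, Nbr1, Optn, Tax1bp1, Bnip3, Fundc1 and Wdfy3). The members were chosen by gene symbol, and all 10 were found among the 23930 genes of the table. The cells were Pax7-GFP+ cells sorted from digested hind leg muscle of mice with the genotype Inducible Pax7-GFP C57BL/6. All mice, in both groups, received tamoxifen at 12 weeks of age and were collected at 16 weeks. In between, the normocapnia group (NC, 3 libraries, NC1 to NC3) breathed normal air and the hypercapnia group (HC, 4 libraries, HC1 to HC4) spent 4 weeks in 10% CO2. According to the methods, the tibialis anterior and gastrocnemius muscles had been injured with cardiotoxin 3 days before collection in both groups. All hind leg muscles were then collected, not only the injured ones. The reporter was switched on by an inducible Cre recombinase driven by Pax7, so that GFP also stayed on in cells that arose from Pax7-expressing cells and had since lost Pax7. Nothing in the labels says whether each library came from a separate animal or from a pool, so p-values measure the spread between these libraries, which may be technical.

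Autophagy encloses cytoplasm in a double membrane that later fuses with the lysosome. ATG8 proteins, the mammalian LC3 and GABARAP families, are made as precursors, trimmed by the ATG4 proteases behind a glycine near the end of the protein, and then attached to a lipid of the growing membrane. Receptors bind the cargo on one side and a membrane-bound ATG8 protein on the other, and many are themselves degraded with the cargo. Muscle stem cells, also called satellite cells, depend on autophagy to remain quiescent and to leave quiescence after injury. Messenger RNA was the quantity measured here, and it does not report how much autophagosome is formed or cleared.

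Expression was given as RPM, reads scaled to the same total in every library, from an amplicon panel that reads 1 short stretch of each transcript. A value can thus be compared between libraries for the same gene, but not between genes. Library totals ran from 14527445 to 23388710 reads. NC3 stood apart: its 10 most-read genes took 16.6% of its reads, against 8.36% to 12.1% in the other libraries, and it held the lowest value of all 7 libraries for 48.9% of the 12504 genes averaging 1 RPM or more, called expressed genes from here on, which include all 10 members. Pax7, whose promoter drives the Cre of the reporter, was at 268, 8.25 and 4.34 RPM in NC1, NC2 and NC3, and between 20.1 and 79.5 RPM in the HC libraries. The summed level of 10 satellite cell markers ranged from 595 to 4215 RPM in NC and from 779 to 1642 RPM in HC, and that of 10 macrophage markers from 12269 to 35012 RPM in NC and from 20099.7 to 24991 RPM in HC. Such sums follow their most-read markers. Lyz2 alone was at 8354, 13313 and 29108 RPM in NC1, NC2 and NC3, and Sdc4 at 441 of the 595 RPM of satellite markers in NC3. NC3 held the highest Lyz2 of all 7 libraries but the lowest Adgre1, C1qb and Cd14. Differences lay above 0 for 7 of the 10 macrophage markers and for 7 of the 10 satellite markers, where 7765 of the 12504 expressed genes were above 0. Adgre1 was called higher in HC, beside 2.66% of the expressed genes, and 1 macrophage marker was at 0 in some library. None of the satellite markers was called. The Adgre1 call was lost with median-of-ratios scaling and without NC1, HC1 or HC2, and the macrophage list held 2 calls with quantile normalization and without NC2. The absence of satellite calls rested on NC1, since 5 of the 10 were called without it. Leaving out NC1 also raised the calls over all 23930 genes from 615 to 1990. Without NC3, and with median-of-ratios scaling, edgeR with a filter or DESeq2, 1 satellite marker was called. Macrophage transcripts were thus read in every library, Lyz2 at 8354 to 29108 RPM, while Pax7 was low in NC2 and NC3, so that the label of muscle stem cells is not borne out by Pax7 in those libraries and the cells are called Pax7-GFP+ cells here. The part of these cell types in the results was not tested. In such bulk RNA, a change in the share of a cell type and a change in RNA per cell cannot be told apart.

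The comparison asked whether transcripts of the ATG8 proteins and of their receptors differed between HC and NC cells. A gene was called if its unadjusted p lay below 0.05 and it changed by more than 1.5-fold, from limma on log2(RPM + 1) over the whole table. Gabarap rose in HC, and the other 9 genes did not pass the test in either direction. The call of 1 member in 10 as higher stands beside a background of 1.43% of all genes called higher, or 2.66% of the expressed genes, and 1.14% of all genes were called lower, 2.57% in either direction. edgeR (6.03% of its genes called), DESeq2 (6.25%) and limma after median-of-ratios scaling (2.56%) called none of the 10 members. The fold change was above 0 on the log2 scale for 3 members (Gabarap, Sqstm1 and Fundc1) and below 0 for 7, with a median of -0.13. This stands beside a median of 0.16 over the expressed genes. No gene of the table passed an adjusted p under 0.05 with limma, whose lowest was 0.351, although 1114 genes, or 4.66%, had an unadjusted p under 0.05. edgeR gave 0 and DESeq2 28 genes (0.176%) with an adjusted p under 0.05 on the recovered reads.

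**Figure D1:**
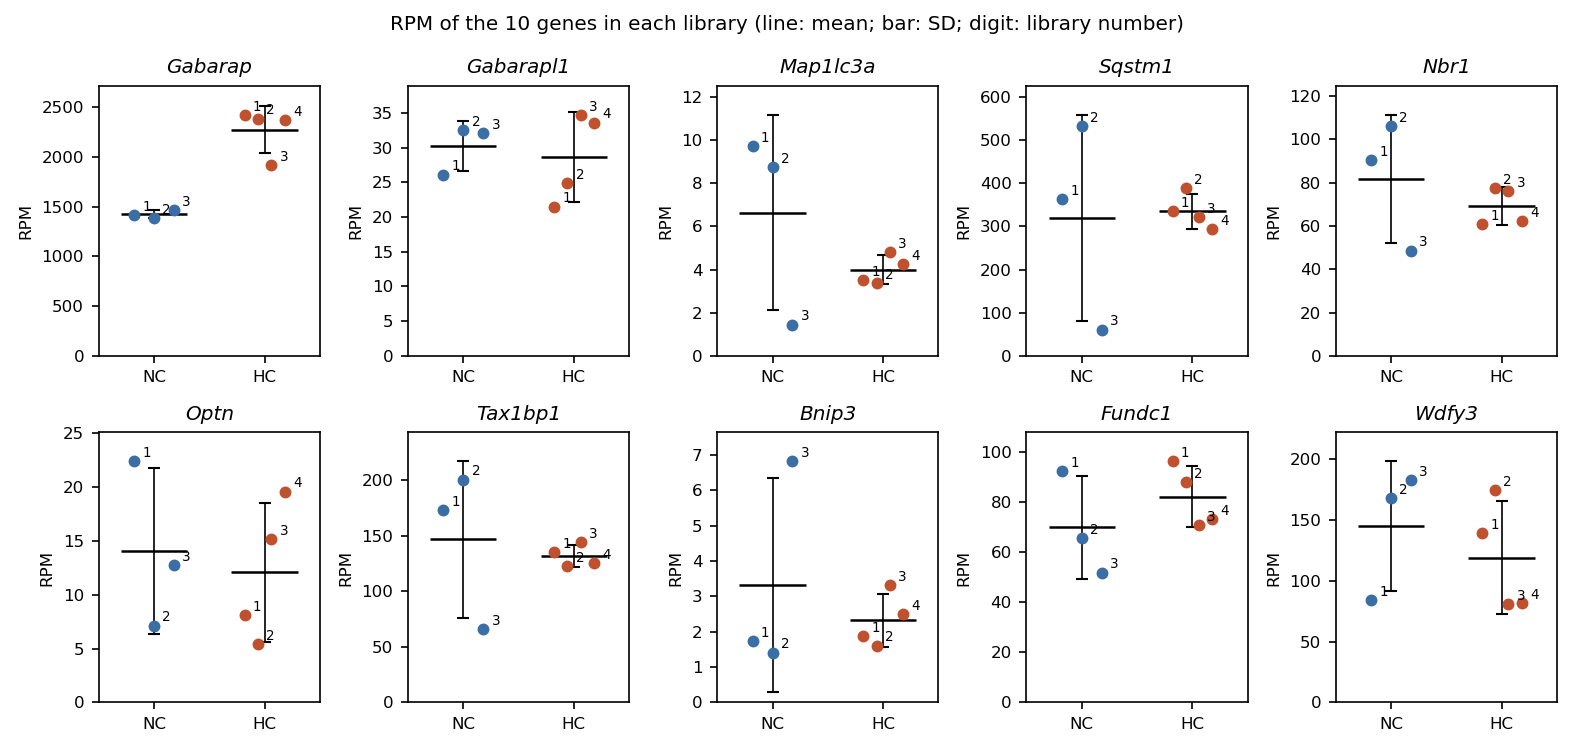
RPM of each gene (y axis, starting at 0) in the 3 NC libraries (blue) and the 4 HC libraries (orange), with the group mean (line) and SD (bar); the digit is the library number. Gabarap is the gene whose groups do not overlap, with 1389 to 1468 RPM in NC and 1919 to 2424 RPM in HC.

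The 3 ATG8 genes encode small proteins of similar length, and the ends of their coding sequences are shown because the trimming step that makes each protein usable takes place there. Each line holds the last bases of the coding sequence from GENCODE M21 (GRCm38), with the last glycine codon in capitals, followed by 1 codon and the stop.
Gabarap: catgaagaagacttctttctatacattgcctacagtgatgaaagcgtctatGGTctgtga
Gabarapl1: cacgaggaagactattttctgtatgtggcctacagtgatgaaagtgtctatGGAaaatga
Map1lc3a: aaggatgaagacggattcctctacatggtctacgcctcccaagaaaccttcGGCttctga

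The glycine codon stood directly before the last codon in all 3 genes. The coding sequences of Gabarap and Gabarapl1 had the same length, 354 bases, and were identical at 74.9% of aligned bases, with no identical run longer than 17 bases. Map1lc3a, with 366 bases, shared 51.9% with Gabarap and 51.8% with Gabarapl1. No transcript of another gene was near-identical to Gabarap or Map1lc3a (at least 90% identity over 100 bases or more), whereas Gabarapl1 shared 379 identical bases with 1700101I11Rik. That gene has no row of its own in the table, and the position of the Gabarapl1 amplicon is not given in the sources used here.

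Gabarap, the founding member of the GABARAP branch, was at 1417, 1389 and 1468 RPM in NC1, NC2 and NC3, and at 2424, 2387, 1919 and 2373 RPM in HC1, HC2, HC3 and HC4. Every HC library lay above every NC library, and the NC values were close together, their highest being 1.06 times their lowest. The means were 1425 ± 39.96 RPM (SD, n = 3) and 2276 ± 239 RPM (SD, n = 4). The difference came to 0.67 on the log2 scale, or 1.59-fold, with an SE of 0.09 and a 95% interval from 0.44 to 0.90 (limma, adjusted p = 0.492). Groups that do not overlap were found for 7.72% of the expressed genes.

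Gabarap ranked 23 by p among all 23930 genes. The size of its SE depended on the prior variance that limma adds. Where limma's prior variance was estimated from expressed genes alone, the SE became 0.25 and the call held, and where that variance followed the mean expression, the SE became 0.33 and the call was lost. Scaling by median of ratios lowered the difference to 0.53 with an SE of 0.26, and the call was lost. Relative to the median shift of the expressed genes, Gabarap was higher by 0.51 with RPM, by 0.48 with median of ratios and by 0.67 with quantile normalization. Of the 10 macrophage markers, 7 differences lay above 0 and 1 marker, Adgre1, was called. Adgre1 was at 109, 149 and 70.5 RPM in NC and 392, 429, 151 and 184 RPM in HC. Its groups did not overlap, and its call was lost in the settings named above. The other 3 differences, Csf1r (-0.14), Itgam (-0.12) and Lyz2 (-0.01), lay below 0. The macrophage sum, weighted by Lyz2, was 20099.7 to 24991 RPM in HC, within the NC range of 12269 to 35012 RPM. The part of macrophages in the Gabarap result was not tested.

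Gabarapl1, the closest relative of Gabarap, was at 26.1, 32.5 and 32.1 RPM in NC1, NC2 and NC3, and at 21.5, 24.9, 34.7 and 33.6 RPM in HC1, HC2, HC3 and HC4. The groups overlapped, with both the lowest and the highest value in HC. Its difference was -0.09 on the log2 scale with a 95% interval from -0.59 to 0.40 (limma, adjusted p = 0.978), which leaves room for a change of up to about 1.5-fold downwards.

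Map1lc3a, which encodes the LC3A protein of the other branch of the family, was at 9.72, 8.76 and 1.45 RPM in NC1, NC2 and NC3, and at 3.51, 3.37, 4.81 and 4.27 RPM in HC1, HC2, HC3 and HC4. These values rest on 218, 205 and 21 reads in NC and on 63 to 82 reads in HC. All HC libraries lay between NC3, which was lowest, and the other 2 NC libraries, which were highest. Over all 7 libraries the difference was -0.36 (SE 0.56, limma, adjusted p = 0.937). Without NC3 it was -1.05, with a 95% interval from -1.43 to -0.67, and passed the call (limma, adjusted p = 0.255), where 1.59% of all genes, or 2.86% of the expressed genes, were called lower. Without NC1 the difference was 0.02 and without NC2 -0.05, and neither passed the call.

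Gabarap was also set against the other 2 genes within each library, as a ratio of RPM + 1, in which the added 1 RPM weighs on the low values of Map1lc3a. On the log2 scale, the ratio of Gabarap to Gabarapl1 was 5.71, 5.38 and 5.47 in NC1, NC2 and NC3, and 6.75, 6.53, 5.75 and 6.10 in HC1, HC2, HC3 and HC4. The groups did not overlap, though HC3 lay close to NC1. The means of 5.52 ± 0.17 (SD, n = 3) and 6.28 ± 0.45 (SD, n = 4) differed by 0.76, or 1.7-fold (exact permutation test, two-sided, p = 0.0571, adjusted over 2 ratios p = 0.114, smallest possible p = 0.0286).

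The ratio of Gabarap to Map1lc3a was 7.05, 7.15 and 9.23 in NC and 9.07, 9.10, 8.37 and 8.82 in HC. NC3 lay above all HC libraries and the other 2 NC libraries below them. The difference was 1.03 (exact permutation test, two-sided, p = 0.257), and with a pseudocount of 5 RPM it was 0.95 (exact permutation test, p = 0.0571). Without NC3 it was 1.74 and every HC library lay above both NC libraries (exact permutation test, p = 0.0667, the smallest that 2 against 4 libraries allow).

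**Figure D2:**
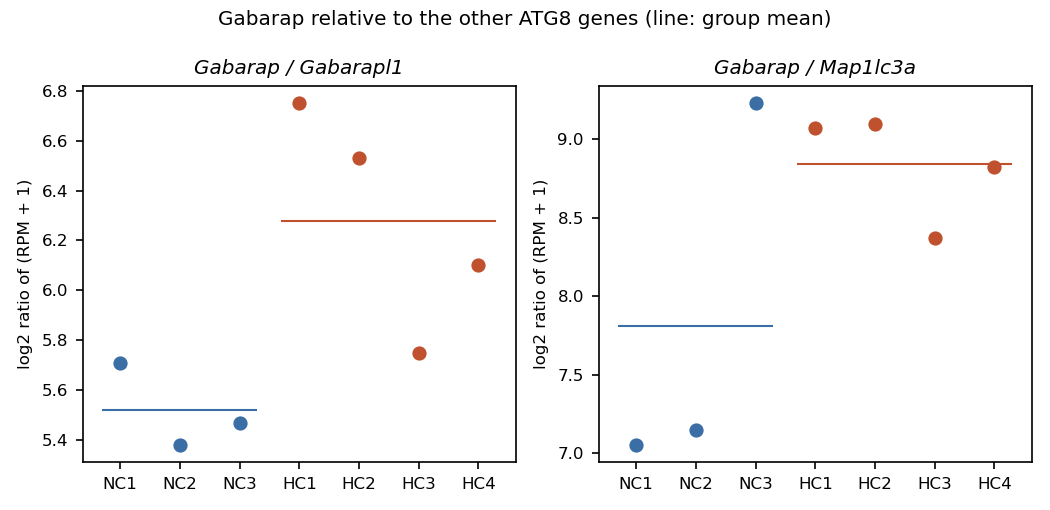
Log2 ratio of Gabarap to Gabarapl1 (left) and to Map1lc3a (right), each computed from RPM + 1 within a library, for the 3 NC (blue) and 4 HC (orange) libraries; lines are group means. In the left panel the groups do not overlap (highest NC value 5.71, lowest HC value 5.75), and in the right panel NC3 lies at 9.23, above every HC library.

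Ubiquitin-tagged cargo is bound by 4 of the receptors: Sqstm1, which encodes p62, Nbr1, Tax1bp1 and Optn. None passed the test over all 7 libraries. Sqstm1, which gathers ubiquitinated proteins into condensates, was at 363, 532 and 61.0 RPM in NC1, NC2 and NC3, and at 336, 389, 322 and 293 RPM in HC1, HC2, HC3 and HC4. The HC libraries were close together, the highest being 1.33 times the lowest, whereas the NC libraries spanned 8.73-fold, with NC3 far below the other 2. The mean RPM of the groups was close, at 319 ± 239 RPM (SD, n = 3) and 335 ± 40.5 RPM (SD, n = 4). The difference between the means of log2(RPM + 1), in which the low NC3 weighs more, was 0.54 with an SE of 0.77 and a 95% interval from -1.37 to 2.46 (limma, adjusted p = 0.924). edgeR with a filter gave 0.10 and DESeq2 0.07 for Sqstm1. Without NC3 the direction turned, to -0.40 (SE 0.20, limma, adjusted p = 0.896).

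Nbr1, a partner of p62 in those condensates, was at 90.3, 106 and 48.6 RPM in NC1, NC2 and NC3, and at 60.9, 77.4, 76.2 and 62.2 RPM in HC1, HC2, HC3 and HC4. Tax1bp1, which brings the autophagy machinery to p62 condensates, was at 173, 200.4 and 66.3 RPM in NC and at 135, 123, 144 and 125 RPM in HC. In both genes NC3 was the lowest library and NC1 and NC2 were the highest, as for Map1lc3a. Over all libraries, Nbr1 differed by -0.17 (SE 0.29, limma, adjusted p = 0.948) and Tax1bp1 by -0.01 (SE 0.40). Without NC3 both came to -0.50, with unadjusted p under 0.05 (limma, adjusted p = 0.553 for Nbr1 and 0.329 for Tax1bp1), which is below the fold change that a call needs. NC1 and NC2 both lay above every HC library for 3 of the 10 members, against 10.1% of the expressed genes, and both below every HC library for 1 member (Gabarap), against 5.98%.

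Optn, which encodes optineurin, a receptor for damaged mitochondria and bacteria, was at 22.4, 7.14 and 12.8 RPM in NC1, NC2 and NC3, and at 8.13, 5.43, 15.2 and 19.6 RPM in HC1, HC2, HC3 and HC4. Each group held low and high libraries, and the difference was -0.22 (SE 0.56, limma, adjusted p = 0.997). Wdfy3, which encodes ALFY, a large scaffold that links p62 bodies to the membrane, was at 84.0, 168 and 183 RPM in NC and at 139.6, 175, 81.0 and 81.5 RPM in HC, a difference of -0.28 (SE 0.42, limma, adjusted p = 0.928). Within HC, HC1 and HC2 lay apart from HC3 and HC4 for 8 of the 10 members, against 68.2% of the expressed genes. HC1 and HC2 were the lower pair for Gabarapl1, Map1lc3a, Optn and Bnip3 and the higher pair for Gabarap, Sqstm1, Fundc1 and Wdfy3. For instance, HC1 and HC2 were low in Optn (mean 6.78 RPM, against 17.4 RPM in HC3 and HC4) and high in Wdfy3 (157 against 81.2 RPM). The summed marker levels of satellite cells, neutrophils, endothelial cells, fibro-adipogenic cells and myofibers were lower in HC1 and HC2 than in HC3 and HC4. The endothelial sum, for instance, was 56.3 and 42.9 RPM in HC1 and HC2 and 476 and 373 RPM in HC3 and HC4, and the myofiber sum was 462 and 276 RPM against 859 and 1599 RPM. The macrophage sum went the other way, at 24991 and 21588 RPM in HC1 and HC2 and 20099.7 and 20467 RPM in HC3 and HC4. The part of these cell types in the values of these members was not tested.

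Bnip3 and Fundc1 encode receptors that sit in the outer mitochondrial membrane and mark mitochondria for removal, and both are known for their link to low oxygen. Bnip3 was at 1.74, 1.41 and 6.82 RPM in NC1, NC2 and NC3, and at 1.88, 1.61, 3.31 and 2.50 RPM in HC1, HC2, HC3 and HC4. These are 32 to 99 reads a library, and NC3 was the highest, at 4.33 times the mean of NC1 and NC2. The difference of -0.19 (SE 0.46, limma, adjusted p = 0.993) became 0.35 without NC3. The Bnip3 value is uncertain for a further reason, since transcripts of 6 other annotated genes matched that of Bnip3 at 93.382% to 99.712% identity and none of them has a row in the table. Shorter matches to transcripts without a row were found for Tax1bp1 (1 gene, 127 identical bases) and Wdfy3 (2 genes, 205 bases at 99.512% and 165 identical bases), so that their values carry the same limit.

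Fundc1 was at 92.4, 65.5 and 51.8 RPM in NC1, NC2 and NC3, and at 96.2, 88.1, 70.8 and 73.3 RPM in HC1, HC2, HC3 and HC4. NC1 reached the level of the highest HC libraries, while NC2 and NC3 lay below all of them. The difference was 0.26, with a 95% interval from -0.30 to 0.82 (limma, adjusted p = 0.915), without NC3 it was 0.07 (SE 0.20), and without NC1 it was 0.48 (SE 0.18), with an unadjusted p under 0.05 but below the fold change that a call needs.

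**Figure D3:**
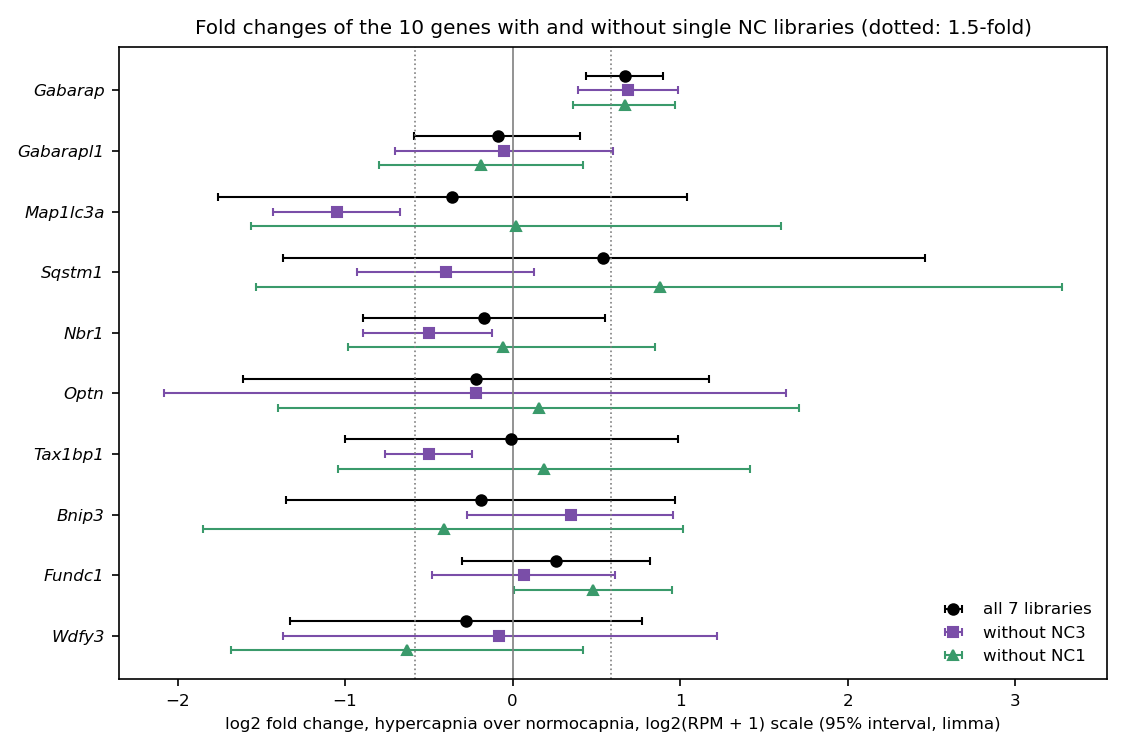
Log2 fold change of each gene, HC over NC, on the log2(RPM + 1) scale with its 95% interval from limma, over all 7 libraries (black) and without NC3 (purple) or NC1 (green); dotted lines mark 1.5-fold. The 3 estimates for Gabarap lie close together (0.67 over all libraries, 0.69 without NC3), while Map1lc3a moves from -0.36 to -1.05 and Sqstm1 from 0.54 to -0.40 without NC3.

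The spread between libraries thus differed by gene and by group. NC3 was the lowest of the 7 libraries for 5 members and the highest for 2, that is, at an extreme for 7 of 10, against 64.3% of the expressed genes. The mean of NC1 and NC2 was 7.34 times NC3 for Sqstm1, 6.39 times for Map1lc3a, 2.81 times for Tax1bp1 and 2.02 times for Nbr1. In the HC group the same 4 genes spanned 1.33, 1.43, 1.17 and 1.27-fold from the lowest to the highest library. Gabarap went the other way, with a span of 1.06-fold in NC and 1.26-fold in HC.

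**Figure D4:**
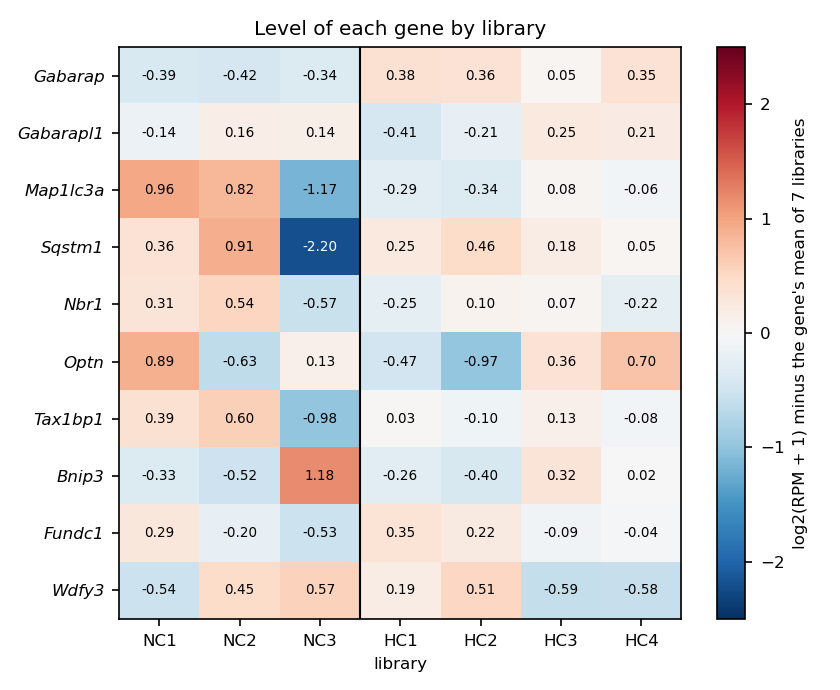
Level of each gene (rows) in each library (columns) as log2(RPM + 1) minus the mean of that gene over the 7 libraries; red is above and blue below that mean, and the vertical line parts NC from HC. Gabarap is below its mean in all NC and above it in all HC libraries, and NC3 holds the most negative value of the map, -2.20 for Sqstm1.

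The genes around these members were read from 7 lists with 83 measured genes, of which 1 was called higher and 0 lower, against 1.43% and 1.14% of all genes. Of the 83 genes, 79 were among the expressed genes, and 4.75% of all expressed genes were called in either direction. Among 13 other receptors and adaptors none was called and the median difference was -0.02. The row with the highest mean RPM, Rtn3, a receptor for turnover of the endoplasmic reticulum, differed by -0.02 (SE 0.33). Of the 10 genes that process ATG8 proteins or attach them to the membrane, none was called and the median was -0.09. The highest by RPM, Atg7, which activates ATG8 proteins for attachment, was at 134, 243 and 127 RPM in NC and 255, 305, 203 and 223 RPM in HC. NC2 lay within the range of the HC libraries and the other 2 below it, and the difference was 0.60 (SE 0.28, limma, adjusted p = 0.915). Map1lc3b and Gabarapl2, 2 further ATG8 genes, were not analysed here, and Calcoco2, another ubiquitin receptor, was listed at 0 in all 7 libraries.

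Regulators of receptors (13 genes), among them kinases, ubiquitin ligases and adaptors, had a median of 0.00 and no call. The highest by RPM was Csnk2b, a subunit of casein kinase 2, with -0.23 (SE 0.31). Genes for fusion of the autophagosome with the lysosome (17 genes) had a median of 0.38 and no call, with 11 differences above 0 and 5 below, where 7765 of the 12504 expressed genes were above 0. The highest by RPM was Vamp8, a fusion protein of the lysosome side, with 0.38 (SE 0.44), and Rab7 was listed at 0 in all libraries. The 9 Nrf2 target genes, read because Nrf2 can induce Sqstm1, had a median of -0.33 and no call. The highest by RPM, Hmox1, which breaks down heme, was at 249, 764 and 2768 RPM in NC1, NC2 and NC3 and between 547 and 717 RPM in HC. The 10 Hif1 target genes, read because Hif1 can induce Bnip3, had a median of 0.13 and no call. Ldha, a glycolytic enzyme and the highest of them by RPM, differed by 0.98 (SE 0.63, limma, adjusted p = 0.915).

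The list of 11 transcription factors of autophagy and stress held the single call. Hif1a, the oxygen-regulated factor, was at 248, 129.8 and 128 RPM in NC1, NC2 and NC3, and at 269, 213, 381 and 499 RPM in HC1, HC2, HC3 and HC4. The groups overlapped through NC1 and HC2. The difference was 1.01 (SE 0.39, limma, adjusted p = 0.915). The call was lost without any 1 of NC2 (0.86), NC3 (0.85), HC1 (1.10), HC3 (0.93) or HC4 (0.80). The median of this list was -0.39, and its highest gene by RPM, Atf4, a factor of the stress response, differed by 0.08 (SE 0.25). With median-of-ratios scaling the medians of the 7 lists, in the order given, were -0.16, -0.23, -0.01, 0.24, -0.48, -0.01 and -0.54, beside 0.04 over the expressed genes, so that the sign of the Hif1 list turned. In all 7 lists, 4 of the 83 genes had an unadjusted p under 0.05, against 4.66% of all genes and 7.58% of the expressed genes. Beside Hif1a these were Nfe2l2, which encodes Nrf2 (-0.39, SE 0.15), Traf6, a ubiquitin ligase (-0.40, SE 0.12), and Vps11, a tethering subunit (-0.53, SE 0.16), all by limma, below 1.5-fold and named after their values were seen.

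**Figure D5:**
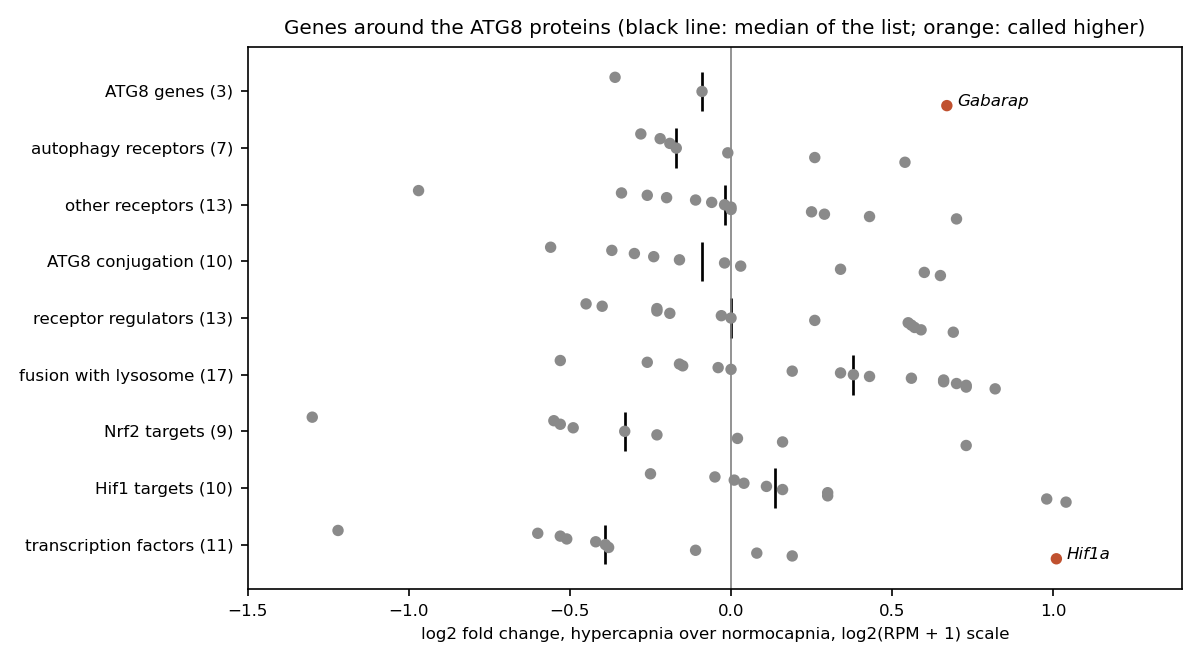
Log2 fold change, HC over NC, on the log2(RPM + 1) scale for each gene (points) of the ATG8 genes, the autophagy receptors and 7 lists around them, with the number of genes in parentheses and the median of each list as a black line. Called genes are orange: Gabarap at 0.67 and Hif1a at 1.01.

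Promoters were read for the letters that factors of these lists are known to bind, in windows from 250 bases before to 50 bases after the start of transcription (RefSeq, GRCm38.p6). Of the 10 members, 8 had a window. The letters ACGTG, the core bound by Hif1, were searched on both strands and stood in 4 members (Gabarap, Nbr1, Tax1bp1 and Bnip3) out of the 8 with a window, against 21.8% of all 27025 genes with a window. The E-box CACGTG, which contains that core and is part of the site bound by Tfeb, stood in 1 member (Bnip3) against 8.09% of genes. TGACNNNGC, the core bound by Nrf2, stood in 1 member (Tax1bp1) against 14% of genes. The stretches below are shown with the match in capitals because they lie before or at the start of the gene called higher and of the members with the rarer matches.
Gabarap, chr11:69991253-69991275, plus strand: gcgtagaaaCACGTctcatgaaa
Bnip3, chr7:138909600-138909623, minus strand: cacgcgccgCACGTGccacacgct
Tax1bp1, chr6:52713951-52713977, plus strand: tctccgtggTGACGAAGCtctctttcc

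In the Gabarap stretch the capitals are the reverse complement of ACGTG. Such matches are descriptions of the letters only. Of the 4 members with ACGTG, Gabarap was called higher and the differences of the other 3 lay between -0.19 and -0.01.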

How the data were processed

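RNA of sorted Pax7-GFP+ cells (3 NC and 4 HC libraries, groups from the labels) was made into AmpliSeq libraries by the authors, who deposited their RPM in 1 table, each library scaled to 1000000 reads. The submitters' processing notes name the Transcriptome Analysis Console. The aligner is not given in the sources used here, nor is the build. The strain number in the genotype labels counts upwards from sample to sample, whereas the growth protocol gives C57/B6 for all. A time in hours in the title of the table, which the methods use only for cultured cells, was not resolved. No low-value filter was found, since 2443 genes were at 0 in all libraries. Whole reads were recovered for 100% of values (tolerance 0.05 reads). A floor of 3 reads corresponds to 0.128 to 0.207 RPM and covers counting error only.

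Genes were tested with limma 3.58.1 (R 4.3.3) as log2(RPM + 1) of the full set of 23930 genes, unfiltered, and called if the unadjusted p lay below 0.05 and the change exceeded 1.5-fold, with Benjamini-Hochberg adjustment over all genes beside it. A fold change on this scale can understate the change of low genes. The 2 ratios were tested by exact permutation of the group labels. Alternatives were a pseudocount of 0.1 or 5 RPM, keeping only genes averaging 1 RPM or more, quantile normalization, scaling by median of ratios, a mean-dependent prior variance in limma, edgeR 4.0.16 (filtered or not) and DESeq2 1.42.0 run with recovered reads, a replicate block, and leaving out each library. Of these tests, only limma and edgeR with a filter were tested on simulated counts, which held no outlying library. The members and lists were chosen with earlier results of these data known, and the lists were written from general knowledge. Named were all members and, of each list, the called genes (up to 3 in each direction) and the gene of highest mean RPM. Coding sequences and near-identical transcripts came from GENCODE M21, and promoter windows from RefSeq.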

Additional observations from a re-analysis of the deposited data

Results flagged for a closer look

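Gabarap in HC was flagged because 1 library stood far from the other 3. HC3 was at 1919 RPM and the others between 2373 and 2424 RPM, so that the gap took 0.899 of the whole range of the group, above the 95% critical value of Dixon's test for 4 samples. Such flags also arise by chance in some groups. HC3 still lay above every NC library (1389 to 1468 RPM). Without HC3 the log2 difference was 0.75 (SE 0.03, limma, adjusted p = 0.0754).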

How the results depend on the processing

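Gabarap kept its direction under all 17 alternatives and its call under 12. The call was lost with median-of-ratios scaling (0.53), a prior variance that follows the mean (0.67), edgeR with a filter (0.54) and without (0.56) and DESeq2 (0.49), so that 0 members were called under these 5. Leaving out 1 library gave 0.64 to 0.75, and its adjusted p ran from 0.0754 to 0.961 over all alternatives. Without single libraries 1 to 2 members were called, and the difference ran from -1.05 to 0.02 for Map1lc3a, -0.40 to 1.15 for Sqstm1, -0.50 to 0.29 for Tax1bp1, -0.50 to 0.05 for Nbr1, -0.60 to 0.16 for Optn and -0.50 to 0.35 for Bnip3. All 10 members kept their sign under the 9 alternatives of scaling, pseudocount, filter or tool. DESeq2 gave -0.93 (SE 0.77) for Bnip3 and -0.74 (SE 0.54) for Map1lc3a, neither past the test. Over all genes, 615 calls became 1049 with edgeR without a filter, 1304 with DESeq2 and 376 to 1990 without single libraries (1990 without NC1). The single call in the lists became 2 with the filter at 1 RPM, 3 with edgeR and a filter, 4 with edgeR without one, 3 with DESeq2 and 0 to 8 without single libraries. The ratio differences ran from 0.61 to 0.94 (Gabarapl1) and 0.65 to 1.74 (Map1lc3a). The cause of these changes was not tested. The labels do not say whether replicate numbers pair the libraries. The deviations of same-numbered libraries from their group means correlated at -0.349, 0.503 and -0.0443. These correlations cannot decide it, because deviations within a group are bound to sum to 0. With a replicate block 598 genes were called, Gabarap differed by 0.65 and was called and 4 list genes were called, without Hif1a (0.80). Depth limits Bnip3 and Map1lc3a most, with as few as 32 and 21 reads.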
